A study of Arabidopsis thaliana with 20 samples.

Results

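The 54 probe sets described here measure genes of the chloroplast genome of Arabidopsis thaliana that encode photosynthetic complexes, the plastid RNA polymerase and a few other proteins. They were taken from the 22810 probe sets of the array by gene name alone: a probe set was kept when its single gene symbol started, in lower case, with psa, psb, pet, ndh, rpo or ycf, or was rbcL, matK, accD, clpP, cemA, ccsA, atpA, atpB, atpE, atpF, atpH or atpI. The 54 probe sets named 54 different genes, and the RefSeq gene table placed every gene on the plastid chromosome. They comprised 5 genes of photosystem I, 2 of photosystem I assembly, 15 of photosystem II, 6 of the cytochrome b6f complex, 6 of the ATP synthase, 10 of the NADH dehydrogenase-like (NDH) complex, the Rubisco large subunit gene, 4 of the plastid RNA polymerase and 5 others. Another 3 probe sets that name both copies of a duplicated plastid gene were left out.

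Chloroplasts keep a small genome of their own, and most of their photosynthetic complexes are built from subunits of both the plastid and the nuclear genome. Plastid genes are arranged in operons and read by a plastid-encoded RNA polymerase together with nuclear-encoded polymerases, and their long transcripts are cut into smaller RNAs whose levels depend strongly on RNA stability. In plastids a poly(A) tail generally marks an RNA for decay, whereas it stabilises nuclear messengers, and the labels do not name the primer used in labelling. Genes of the same operon share transcripts, so the 54 genes are not independent of each other and are not replicates of a condition.

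The study used Arabidopsis plants of the Columbia wild type and lines mutated in MYB3R genes, whose products are Myb transcription factors known for their part in cell cycle gene expression. First leaf pairs were collected at 5 d and at 15 d from both the wild type and the triple mutant myb3r1 myb3r3 myb3r5. Each genotype had 2 arrays at 5 d and 3 arrays at 15 d. Whole seedlings of 9 d were measured on 1 array for each of 10 genotypes, which were the wild type, the single mutants myb3r1, myb3r3, myb3r4 and myb3r5, the double mutants myb3r1 myb3r4 and myb3r3 myb3r5, the triple mutants myb3r1 myb3r3 myb3r5 and myb3r3 myb3r4 myb3r5, and the quadruple mutant of all 4 genes. All plants grew under constant light at 22 °C on agar with 2% sucrose. The labels state neither the plants pooled per sample nor the source of the replicates, and p-values therefore cover no more than the differences among these particular arrays, which may be technical. No probe set was named for a MYB3R gene here, so the genotypes are those of the labels.

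The 2 to 3 arrays per leaf group limit the precision, and each value below is the deposited signal of a probe set in arbitrary units. Signals under 33.1, the median over arrays of the 25th percentile of each, were treated as being at a floor, and 16558 probe sets were tested in leaves. All 54 plastid genes were among them. Nuclear photosynthesis genes, which mark green leaf tissue, had a median log2 signal of 10.97 to 13.77 on the 10 leaf arrays. Of 5 root markers listed, 2 had a probe set. The root markers were at the floor on every 15 d array but not on every 5 d array, as EXPA18 had a mean log2 signal of 5.20 over the 10 leaf arrays. The rRNA control probe sets set some leaf arrays apart. The 25S rRNA signal was 7528 to 9714 on 5 of the 10 leaf arrays and 9164 to 14252.5 on the seedling arrays. It was 4715 on wild-type array 2 at 5 d, 3927 on wild-type array 2 at 15 d, 475 on mutant array 2 at 5 d, 219 on mutant array 3 at 15 d and 2.19 on wild-type array 3 at 15 d. The 5S rRNA signal was 202 and 437 on the wild-type and mutant arrays numbered 2 at 5 d and 153 and 679 on those numbered 3 at 15 d, but 12.8 to 52.8 on the other leaf arrays.

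The largest differences among the plastid genes in leaves lay between arrays of the same age and genotype, and they followed the replicate number that the labels give. The median log2 signal of the 54 genes was 8.88 on wild-type array 1 and 10.86 on wild-type array 2 at 5 d. It was 9.08 and 11.34 on mutant arrays 1 and 2 at that age. In both genotypes the array numbered 2 was therefore the higher at 5 d. At 15 d the median was 11.11, 9.00 and 8.89 on wild-type arrays 1, 2 and 3, and 10.64, 8.01 and 10.79 on the corresponding mutant arrays. In both genotypes the array numbered 2 was lower than the array numbered 1, while the arrays numbered 3 differed between the genotypes. The same median over all probe sets moved little, from 7.03 to 7.42.

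**Figure D1:**
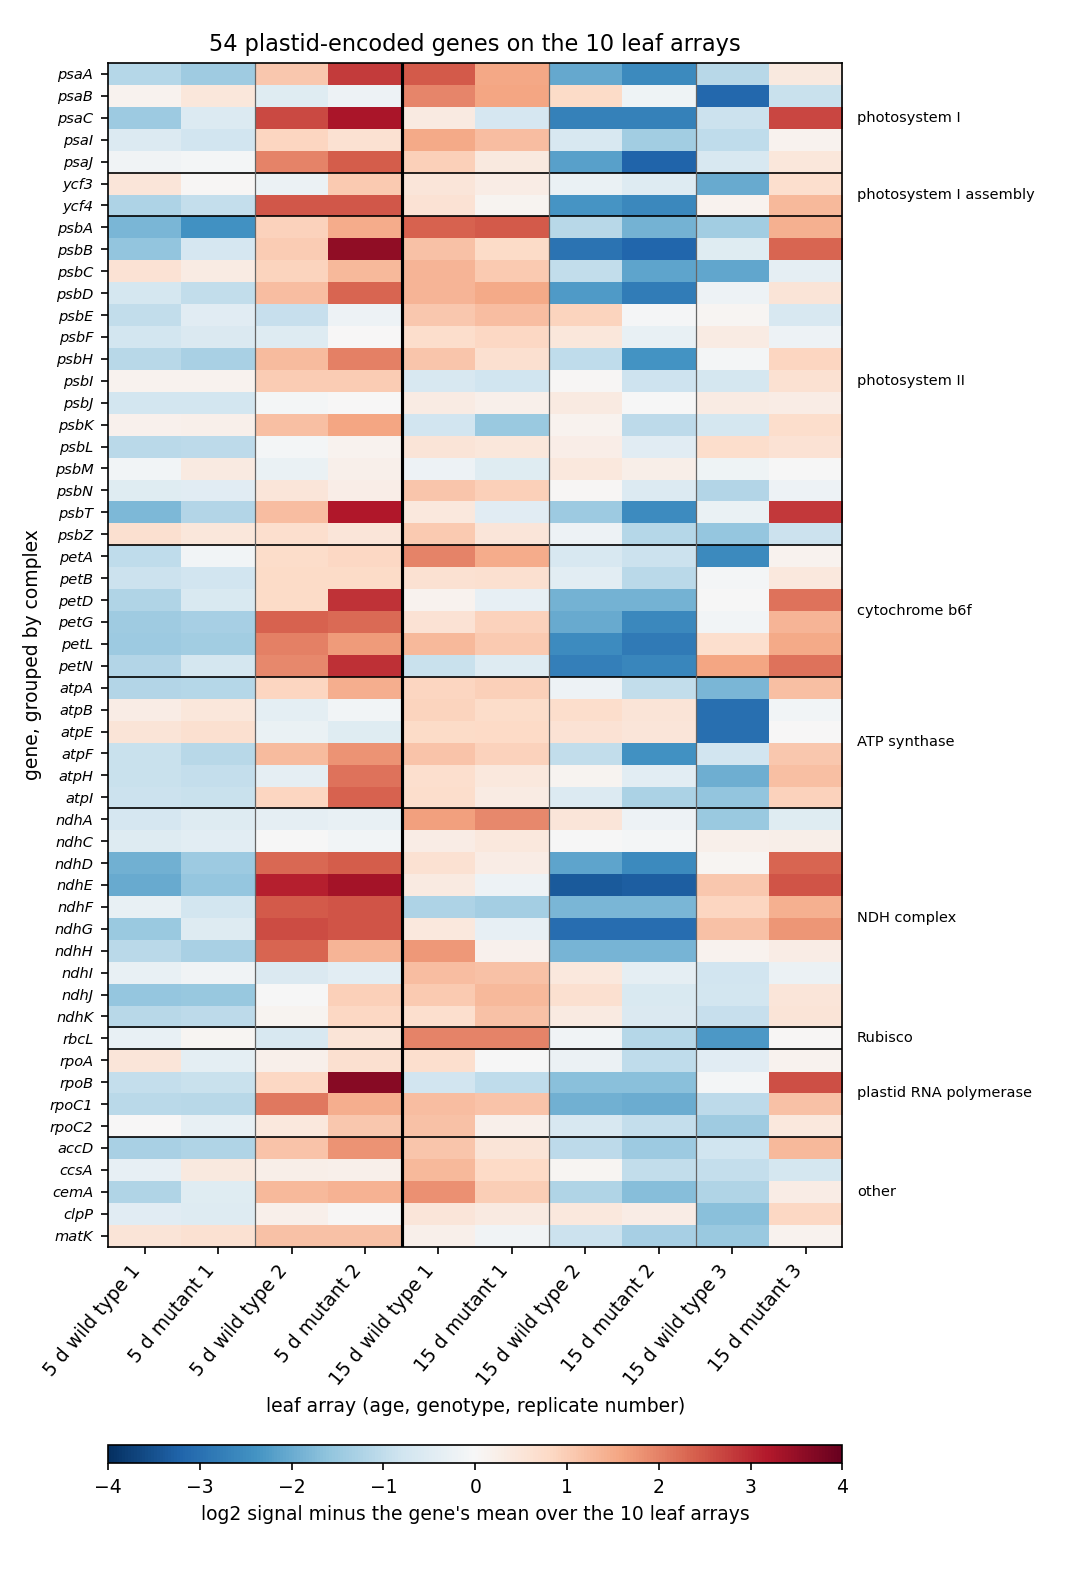
Signal of each of the 54 plastid genes (rows, grouped by complex) on each of the 10 leaf arrays (columns, ordered by age and replicate number), as log2 signal minus the mean of that gene over the 10 arrays; red is above and blue below the mean. Columns with the same age and number are alike in which genes are high and low, and at 15 d the wild-type column numbered 3 is lower in level than the mutant one, while the rows differ in range from 0.91 for psbM to 6.71 for psbB.

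The share of the variation carried by each factor was computed per gene within an age. At 5 d the replicate number held a median of 94.7% of the sum of squares of the 54 genes and the genotype 3.04%. Over all probe sets the corresponding medians were 34.2% and 33.3%. At 15 d the number held 79.4% and the genotype 2.08%, against 60.1% and 13.8% over all probe sets. The number takes more values than the genotype at 15 d but as many at 5 d. A factor with more values holds more of the sum of squares even without an effect. The shares of number and genotype at 15 d are therefore not directly comparable, and neither are the shares of the ages. At 5 d both arrays numbered 2 lay above both arrays numbered 1 for 43 of the 54 genes, which was true of 22.5% of all tested probe sets. The genes psaB, atpB, atpE and ndhI went the other way, as did 18.7% of all tested probe sets. At 15 d both arrays numbered 2 lay below both arrays numbered 1 for 49 of the 54 genes, against 33.4% of all tested probe sets. The exceptions were psbI, psbJ, psbK, psbM and clpP, and psbM was the gene with both arrays numbered 2 above, as were 24.3% of all tested probe sets. For 39 genes both patterns held. Because these arrays hold leaf tissue in bulk, fewer cells of a type and less RNA per cell cannot be told apart.

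A limma fit with the number as a term within each age, added after these data had been seen, gave the size of these differences. At 5 d the 54 genes had a median log2 difference of 1.69 between arrays numbered 2 and 1, or 3.23-fold, and 1 gene passed an adjusted p of 0.05, against 0.0121% of all probe sets (0.00604% higher and 0.00604% lower). That gene was petN, a small subunit of the cytochrome b6f complex. Its signal was 141 and 197 on the arrays numbered 1 and 1210.3 and 2389 on the arrays numbered 2, and the log2 difference was 3.35 with an SE of 0.22 and an adjusted p of 0.029. Altogether 32 of the 54 genes had an unadjusted p under 0.05, as did 14.4% of all probe sets. The count of 1 was 10 without wild-type or without mutant array 3 at 15 d, and 0 without array 1 or 2 of either genotype at 15 d. At 15 d the median log2 difference between arrays numbered 2 and 1 was -1.50. There 25 of the 54 genes were lower on the arrays numbered 2, against 14% of all probe sets called lower. None of the 54 was called higher, against 8.34% of all probe sets. The 25 genes came from all 9 groups of genes. The count was 15 without wild-type array 1, 13 without mutant array 1 and 0 without mutant array 2.

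The 4 largest of these decreases were in reaction centre and core antenna genes. The gene psaA, which encodes a reaction centre protein of photosystem I, had a signal of 1045 and 561 on the wild-type and mutant arrays numbered 1 at 15 d and of 46.3 and 27.0 on those numbered 2. Its log2 difference was -4.29 with an SE of 0.67 and an adjusted p of 0.011. On the mutant array numbered 2 this gene was at the floor. The core antenna gene psbB of photosystem II had signals of 804 and 607 on the arrays numbered 1 and of 46.01 and 39.0 on those numbered 2, a log2 difference of -4.04 with an SE of 0.80 and an adjusted p of 0.019. The reaction centre gene psbD had 772 and 850.5 against 62.8 and 43.5, a log2 difference of -3.95 with an SE of 0.41 and an adjusted p of 0.0057. The other reaction centre gene, psbA, had 4791 and 5149.6 against 438 and 249.9, a log2 difference of -3.91 with an SE of 0.79 and an adjusted p of 0.020. In each of these 4 genes the arrays of the same number were closer to each other than to any array of the other number.

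Between the arrays numbered 3 and 1 at 15 d the called genes went in both directions, as did the called probe sets of the whole array. Here 16 of the 54 genes were called, against 24.3% of all probe sets. Of these, 4 were higher on the arrays numbered 3 and 12 lower, against 9.76% and 14.6% of all probe sets. The 16 genes are thus not far from the share of all probe sets, and the 4 higher genes are below theirs. The median log2 difference was -0.81. That median was 0.18 without wild-type array 3. The 4 higher genes were petN and the NDH subunit genes ndhE, ndhF and ndhG. The petN signal was 170.3 and 223 on the arrays numbered 1 and 947 and 1438 on the arrays numbered 3, a log2 difference of 2.58 with an SE of 0.22 and an adjusted p of 0.0039. The ndhF signal was 49.3 and 45.6 against 211 and 316, a log2 difference of 2.45 with an SE of 0.26 and an adjusted p of 0.0044. For ndhE the signals were 437 and 296 against 714 and 1921, and for ndhG they were 373 and 218 against 618 and 928, with log2 differences of 1.70 (SE 0.44, adjusted p 0.037) and 1.41 (SE 0.39, adjusted p 0.044). In both genotypes each of these 4 genes had its highest leaf signal on the 5 d array numbered 2.

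The largest decreases on the arrays numbered 3 were in psaB, rbcL, petA and ndhA. The signal of psaB, which encodes the second reaction centre protein of photosystem I, was 17461 and 13283 on the wild-type and mutant arrays numbered 1 and 504 and 2422 on those numbered 3, a log2 difference of -3.79 with an SE of 0.69. The signal of rbcL, the gene of the Rubisco large subunit, was 3802 and 3816 against 197 and 993, a log2 difference of -3.11 with an SE of 0.71. For petA, which encodes cytochrome f, the signals were 8025 and 5624 against 351 and 2246, a log2 difference of -2.92 with an SE of 0.73. For the NDH subunit gene ndhA they were 7238 and 8903 against 829 and 1670.3, a log2 difference of -2.77 with an SE of 0.36. The adjusted p of these 4 genes was 0.0061 to 0.033. The count of 16 genes was 9 without wild-type array 1 and 7 without mutant array 1. Of the 12 genes lower on the arrays numbered 3, 8 were also lower on the arrays numbered 2, and 3 of the 4 higher genes were lower there.

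The 5S rRNA control also differed by number, since the 4 arrays with signals of 153 to 679 were the arrays numbered 2 at 5 d and 3 at 15 d. On the 15 d arrays numbered 2, where most plastid genes were lower, it was 12.8 in the wild type and 32.4 in the mutant. On those numbered 1 it was 52.8 and 40.8. The 25S rRNA control was 3927 and 7528 on the 15 d arrays numbered 2, against 9510 and 9714 on those numbered 1. A control probe set for the 5' end of GAPDH was 7643 and 10292 on the 15 d arrays numbered 2, against 3827 and 4628 on those numbered 1. It was 7881 and 6315 on those numbered 3. A control for the 5' end of actin differed less, with 635 and 712 on the arrays numbered 2 against 584 and 436 on those numbered 1. The nuclear photosynthesis genes had 9 of 11 called lower on the arrays numbered 2 and 7 of 11 called lower on those numbered 3 at 15 d, with median log2 differences of -1.54 and -1.95, and 0 called at 5 d. Of all probe sets 14% and 14.6% were called lower in these 2 comparisons. The 15 plastid ribosomal protein genes had 6 and 4 called lower in the same 2 comparisons at 15 d. The part of RNA quality or amount in the differences between numbers was not tested.

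**Figure D2:**
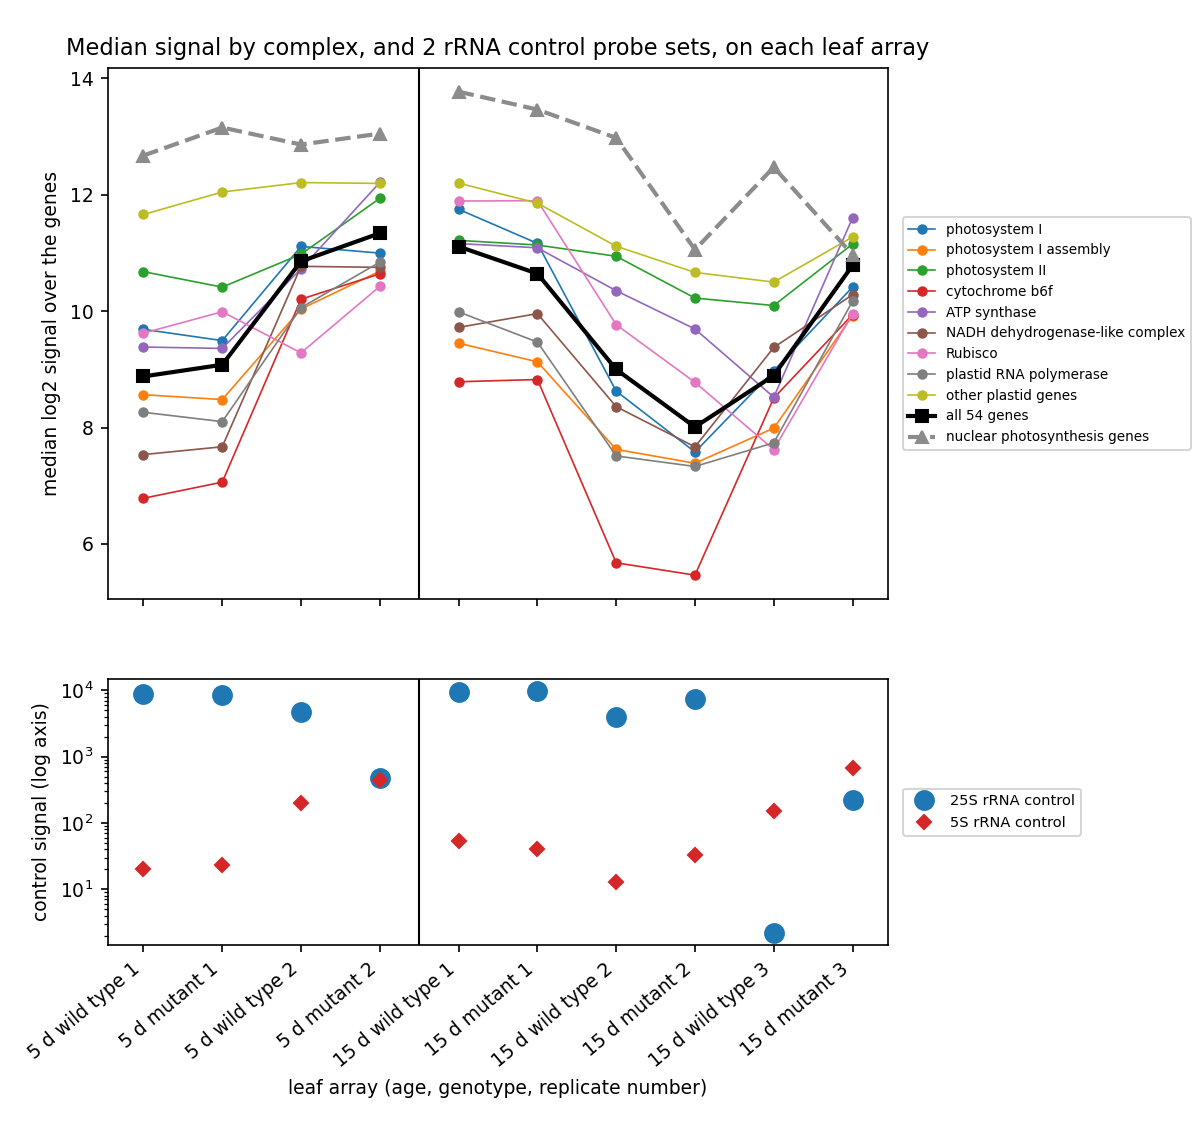
Upper panel: median log2 signal of each complex, of all 54 genes (black) and of 11 nuclear photosynthesis genes (dashed grey) on each leaf array, with lines joining the arrays of an age only to guide the eye. Lower panel: signal of the 25S and 5S rRNA control probe sets on a log axis. The median of the 54 genes runs from 8.01 on mutant array 2 at 15 d to 11.34 on mutant array 2 at 5 d, and the 25S rRNA control is at 2.19 on wild-type array 3 at 15 d.

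The genes differed in how far they ranged over the 10 leaf arrays. The range from the lowest to the highest array had a median of 3.86 on the log2 scale over the 54 genes, against 1.95 over all tested probe sets. It was 3 or more in 35 genes and under 2 in 9, which were psbM, ndhC, psbJ, psbF, rpoA, psbL, psbI, petB and ndhI. Rank correlation of the range with the mean log2 signal over the 54 genes was -0.61, a description across genes that share the same 10 arrays. By complex the median range was 5.35 in photosystem I, 4.81 in cytochrome b6f, 4.28 for rbcL, 4.06 in photosystem I assembly, 3.92 in the ATP synthase, 3.81 in the NDH complex, 3.34 in the RNA polymerase, 2.68 in the other genes and 2.59 in photosystem II. For 53 of the 54 genes the leaf range exceeded the range over the 10 seedling arrays, as it did for 94.5% of all probe sets tested in both tissues.

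The gene with the highest mean leaf signal in each complex is given next with every array, starting with photosystem I. Most of these 9 genes departed from the patterns of the number described above: petB followed both of them, whereas psaB, atpE and ndhI were lower on the arrays numbered 2 at 5 d. The psaB signal was 4942 and 3187 in 5 d wild-type leaves, 17461, 7712 and 504 in 15 d wild-type leaves, 6105 and 3935 in 5 d mutant leaves and 13283, 4022 and 2422 in 15 d mutant leaves. At 15 d each genotype thus spanned values above and below both of its 5 d arrays. The assembly factor gene ycf3 had signals of 1037 and 619 at 5 d and of 1025, 613 and 180.5 at 15 d in the wild type, and of 761 and 1519 at 5 d and of 893, 518 and 1177 at 15 d in the mutant. Its groups overlapped at both ages and in both genotypes.

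The steadiest gene was psbM, which encodes a small photosystem II subunit. Its signal was 16939 and 15168 in 5 d and 15805, 24111 and 16254 in 15 d wild-type leaves, and 23263 and 20949.7 in 5 d and 12826, 21410.4 and 17952 in 15 d mutant leaves. These 10 values spanned 1.88-fold. In the cytochrome b6f complex the gene petB, which encodes cytochrome b6, had signals of 5001 and 15536 in 5 d and of 13778, 6815 and 8653 in 15 d wild-type leaves. In the mutant they were 5302 and 15339.7 at 5 d and 13989, 4240.4 and 12006 at 15 d. At 5 d the arrays of the same number were closer to each other than the arrays of the same genotype.

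In the ATP synthase, the gene atpE of the epsilon subunit had signals of 19002 and 11182 at 5 d and of 22564, 20029.9 and 1666 at 15 d in the wild type. The mutant signals were 20786 and 9639 at 5 d and 23282, 18612 and 13430.1 at 15 d. Wild-type array 3 stood far below the other 9 arrays, as it did for atpB, the beta subunit gene of the same operon, with a signal of 1526 there and of 9411 to 22862 elsewhere. The NDH subunit gene ndhI had signals of 6584 and 5378 at 5 d and of 18797, 10863 and 4747 at 15 d in the wild type. In the mutant they were 7332 and 5946 at 5 d and 17991, 6256 and 6773 at 15 d. The arrays numbered 1 at 15 d were the 2 highest of the 10.

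The rbcL signal was 788 and 623 at 5 d and 3802, 871 and 197 at 15 d in the wild type, and 1016 and 1375 at 5 d and 3816, 438 and 993 at 15 d in the mutant. Here too the arrays numbered 1 at 15 d were the 2 highest. The gene rpoA, for the alpha subunit of the plastid RNA polymerase, had signals of 5553 and 4542 at 5 d and of 6337, 3384 and 2882 at 15 d in the wild type, and of 3053 and 6173 at 5 d and of 3918, 1944 and 4336 at 15 d in the mutant. The protease subunit gene clpP had 4393 and 6836 at 5 d and 8441, 7959 and 1889.6 at 15 d in the wild type, and 4232 and 6167 at 5 d and 7719.7, 7377 and 10578 at 15 d in the mutant. Among the 15 d arrays, wild-type array 3 was the lowest for clpP and the other 5 were above both 5 d arrays of their genotype.

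Leaf age was compared within each genotype. In the wild type 4 of the 54 plastid genes were called between 15 d and 5 d leaves, against 52.2% of all probe sets. Of these, psbE, psbF and psbJ were higher and matK was lower at 15 d, where 24.9% and 27.3% of all probe sets were called higher and lower. The age fit had no term for the number, so its SEs and p-values also hold the differences between numbers. Some genes with log2 changes as large as those of called genes had larger SEs and were not called. Examples were ndhF (-1.82, SE 1.35), psaC (-1.66, SE 1.82) and ndhJ (1.11, SE 0.87). Few calls therefore do not show that the plastid genes were steady with age. The median log2 change over the 54 genes was -0.35, with 16 above and 38 below 0, and over all probe sets it was -0.01. In the triple mutant 0 of the 54 genes passed, against 52.9% of all probe sets (25.9% higher and 27.1% lower), and the median was -0.45. There 1 gene had an unadjusted p under 0.05, against 58.8% of all probe sets, and the lowest adjusted p was 0.074, for matK. The count of 4 in the wild type was 0 without wild-type array 1 at 5 d or wild-type array 2 at 15 d, 1 without wild-type array 2 at 5 d or array 1 at 15 d, and 2 without wild-type array 3 at 15 d or mutant array 1 at 5 d. In the mutant it was 1 without wild-type array 1 at 15 d or mutant array 2 at 5 d, and 2 without mutant array 3 at 15 d.

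The 3 genes that rose belong to the psbE operon, whose 4 genes encode the 2 subunits of cytochrome b559 (psbE and psbF) and small photosystem II subunits (psbL and psbJ). The psbE signal was 1794 and 1899.6 in 5 d and 7483, 6632 and 3756 in 15 d wild-type leaves, with means of 1847 ± 74.4 (SD, n = 2) and 5957 ± 1953 (SD, n = 3). Every 15 d array was above both 5 d arrays, and the change was 3.09-fold, or 1.63 on the log2 scale with an SE of 0.51 and an adjusted p of 0.023. The psbF signal was 4389 and 5141 in 5 d and 11940.5, 9971 and 9169.7 in 15 d wild-type leaves. Its groups did not overlap either, and the log2 change was 1.12 with an SE of 0.36 and an adjusted p of 0.026.

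The psbJ signal was 2882 and 4529 in 5 d and 6052, 6075 and 6024 in 15 d wild-type leaves, a log2 change of 0.74 with an SE of 0.28 and an adjusted p of 0.0498. The call of psbJ was lost in 15 of the 24 alternatives run, those of psbE and psbF in 7 and 8, and no direction changed. The 15 d arrays were nearly equal and above both 5 d arrays. The remaining gene of the operon, psbL, had 777 and 1563 in 5 d and 2379, 1969 and 2672 in 15 d leaves. Its log2 change of 1.08 had an adjusted p of 0.075, although the groups did not overlap. With arrays of the same number as a block within each age psbL passed, with an adjusted p of 0.046, so that all 4 genes of the operon were called there. In the mutant, the log2 changes of psbE, psbF, psbL and psbJ were 0.50, 0.38, 0.64 and 0.52, with adjusted p of 0.15 to 0.43. The mutant psbE signal was 2589.7 and 3138 in 5 d and 8429, 3432 and 2276 in 15 d leaves, so these groups overlapped. Whether the change with age differed between the genotypes was tested for every gene, and 0 of the 54 passed, against 0.344% of all probe sets (0.248% higher and 0.0966% lower), with a median difference of -0.06.

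The gene that fell in the wild type was matK, which encodes a maturase for plastid introns. Its signal was 5769 and 9267 in 5 d and 4705, 2219 and 1447 in 15 d wild-type leaves, and all 15 d arrays were below both 5 d arrays. The log2 change was -1.56 with an SE of 0.56 and an adjusted p of 0.042. With arrays of the same number as a block within each age the adjusted p was 0.066, so the call was lost. It was lost in 13 of the 24 alternatives, over which the adjusted p ran from 0.0085 to 0.24. In the mutant the signals were 6174 and 9234 at 5 d and 3706, 1623 and 4502 at 15 d, again without overlap, and the log2 change of -1.33 had an adjusted p of 0.074.

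**Figure D3:**
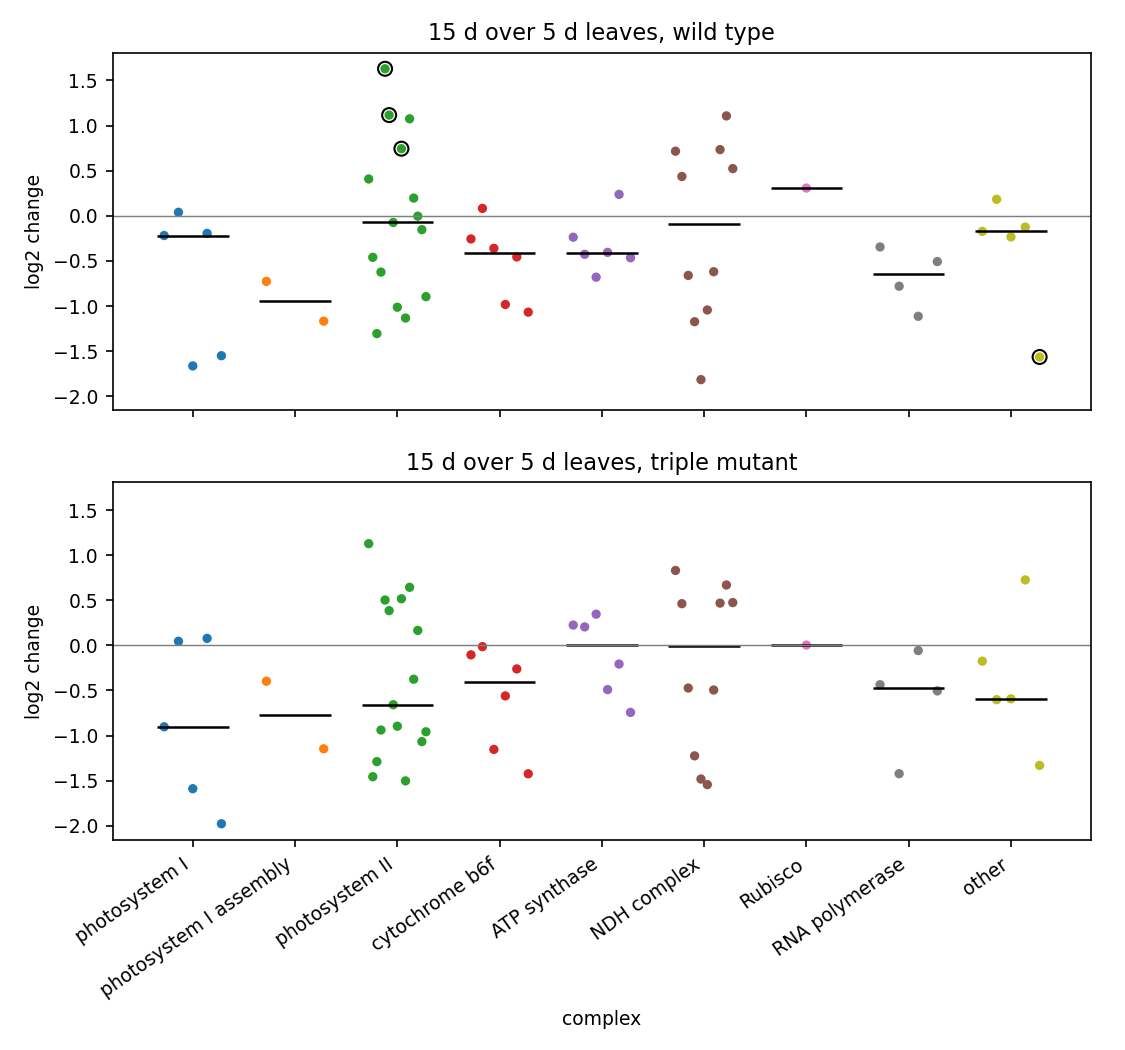
Log2 change from 5 d to 15 d leaves of each plastid gene (points, grouped by complex) in the wild type (upper panel) and the triple mutant (lower panel); the bars are medians and the ringed points passed an adjusted p of 0.05. In the wild type psbE (1.63), psbF (1.12), psbJ (0.74) and matK (-1.56) are ringed, and in the mutant no point is.

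By complex, the median log2 change with age in the wild type was -0.22 in photosystem I, -0.95 in photosystem I assembly, -0.07 in photosystem II, -0.41 in cytochrome b6f, -0.42 in the ATP synthase, -0.09 in the NDH complex and -0.64 in the RNA polymerase. In the mutant the 4 RNA polymerase genes again had a negative median, -0.47, and that of photosystem I was -0.90. None of these genes other than the 4 named passed the test. The median over the 54 genes changed sign when single arrays were left out. In the wild type it was 0.60 without wild-type array 2 at 5 d, 0.05 without array 2 at 15 d and 0.08 without array 3 at 15 d. In the mutant it was 0.64 without mutant array 2 at 5 d and 0.27 without mutant array 2 at 15 d.

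Other genes of the plastid and its partners gave the following in the same comparison. Of the 15 plastid ribosomal protein genes limma called 0 in either genotype, with 0 and 1 at an unadjusted p under 0.05 in the wild type and the mutant, and the changes of rps3 and rpl32, those with the highest mean, were -0.13 and -0.54 on the log2 scale in the wild type. Of 18 probe sets of mitochondrion-encoded genes tested, 7 rose in the wild type and 9 in the mutant, where 24.9% and 25.9% of all probe sets were called higher, and 0 fell in either, where 27.3% and 27.1% were called lower. The cytochrome oxidase subunit genes cox2 and cox1 were examples, with log2 changes of 2.04 in the wild type for cox2 and of 2.80 in the mutant for cox1, and SEs of 0.30 and 0.80. Of the 11 nuclear photosynthesis genes with a probe set of their own, 1 rose in the wild type, LHCB4.3, an antenna protein gene of photosystem II, with a log2 change of 2.86. The median change of these 11 genes was 0.57 in the wild type and -1.49 in the mutant. CLPP4, a nuclear-encoded subunit of the plastid Clp protease, fell in the mutant with a log2 change of -1.09. Both senescence markers measured, SAG29 and WRKY53, rose with age in both genotypes, with log2 changes of 3.84 to 4.65. The part of senescence in the plastid gene values was not tested.

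Genotype was compared within each age. At 5 d 0 of the 54 plastid genes differed between the triple mutant and the wild type, where 0.127% of all probe sets did (0.109% higher and 0.0181% lower), and 0 had an unadjusted p under 0.05, against 5.19%. The median log2 change was 0.27, with 41 genes above and 13 below 0. At 15 d 0 genes differed, where 0.749% of all probe sets did (0.725% higher and 0.0242% lower), and again 0 had an unadjusted p under 0.05, against 8.82%. The median was 0.16, with 39 genes above and 15 below 0. The lowest adjusted p at 15 d was 0.77, for clpP, with a log2 change of 0.75 and an SE of 0.53. The same medians over all probe sets were -0.00 at both ages. This fit had no term for the number, so its SEs and p-values also hold the differences between numbers. With arrays of the same number as a block within each age, 0 of the 54 genes were called at either age as well. The counts at an unadjusted p were taken without that block.

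The sign of the genotype difference depended on the arrays compared. At 5 d the mutant minus wild-type difference had a median of 0.07 between the arrays numbered 1 and of 0.34 between the arrays numbered 2. At 15 d the mutant was lower for 40 of 54 genes between the arrays numbered 1, with a median of -0.25, and lower for 46 genes and higher for 2 between the arrays numbered 2, with a median of -0.53. The other 6 genes were at the floor on both of these arrays. Between the arrays numbered 3 the mutant was higher for 50 of the 54 genes, with a median of 1.44. Of the complexes, the ATP synthase had the largest median there, 2.96, and photosystem II and the NDH complex were at 0.94 and 0.80.

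The 4 genes that were not higher in the mutant between the arrays numbered 3 were psbE, psbF, psbL and psbJ, the genes of the psbE operon, with log2 differences of -0.72, -0.55, -0.12 and -0.03; they were singled out after their values had been seen. Wild-type array 3 was the array with the 25S rRNA signal of 2.19, and mutant array 3 had 219. Without this pair the median change at 15 d was -0.39. Leaving out wild-type array 2 or 3 or mutant array 1 or 3 at 15 d gave medians of -0.10, -0.16, -0.09 and -0.23. At 5 d the median was -0.34 without wild-type array 1 and -0.53 without mutant array 2. In all of these settings 0 of the 54 genes passed the test. The 11 nuclear photosynthesis genes had a median change of 0.46 at 5 d and -1.42 at 15 d, and 0 of them was called at either age.

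**Figure D4:**
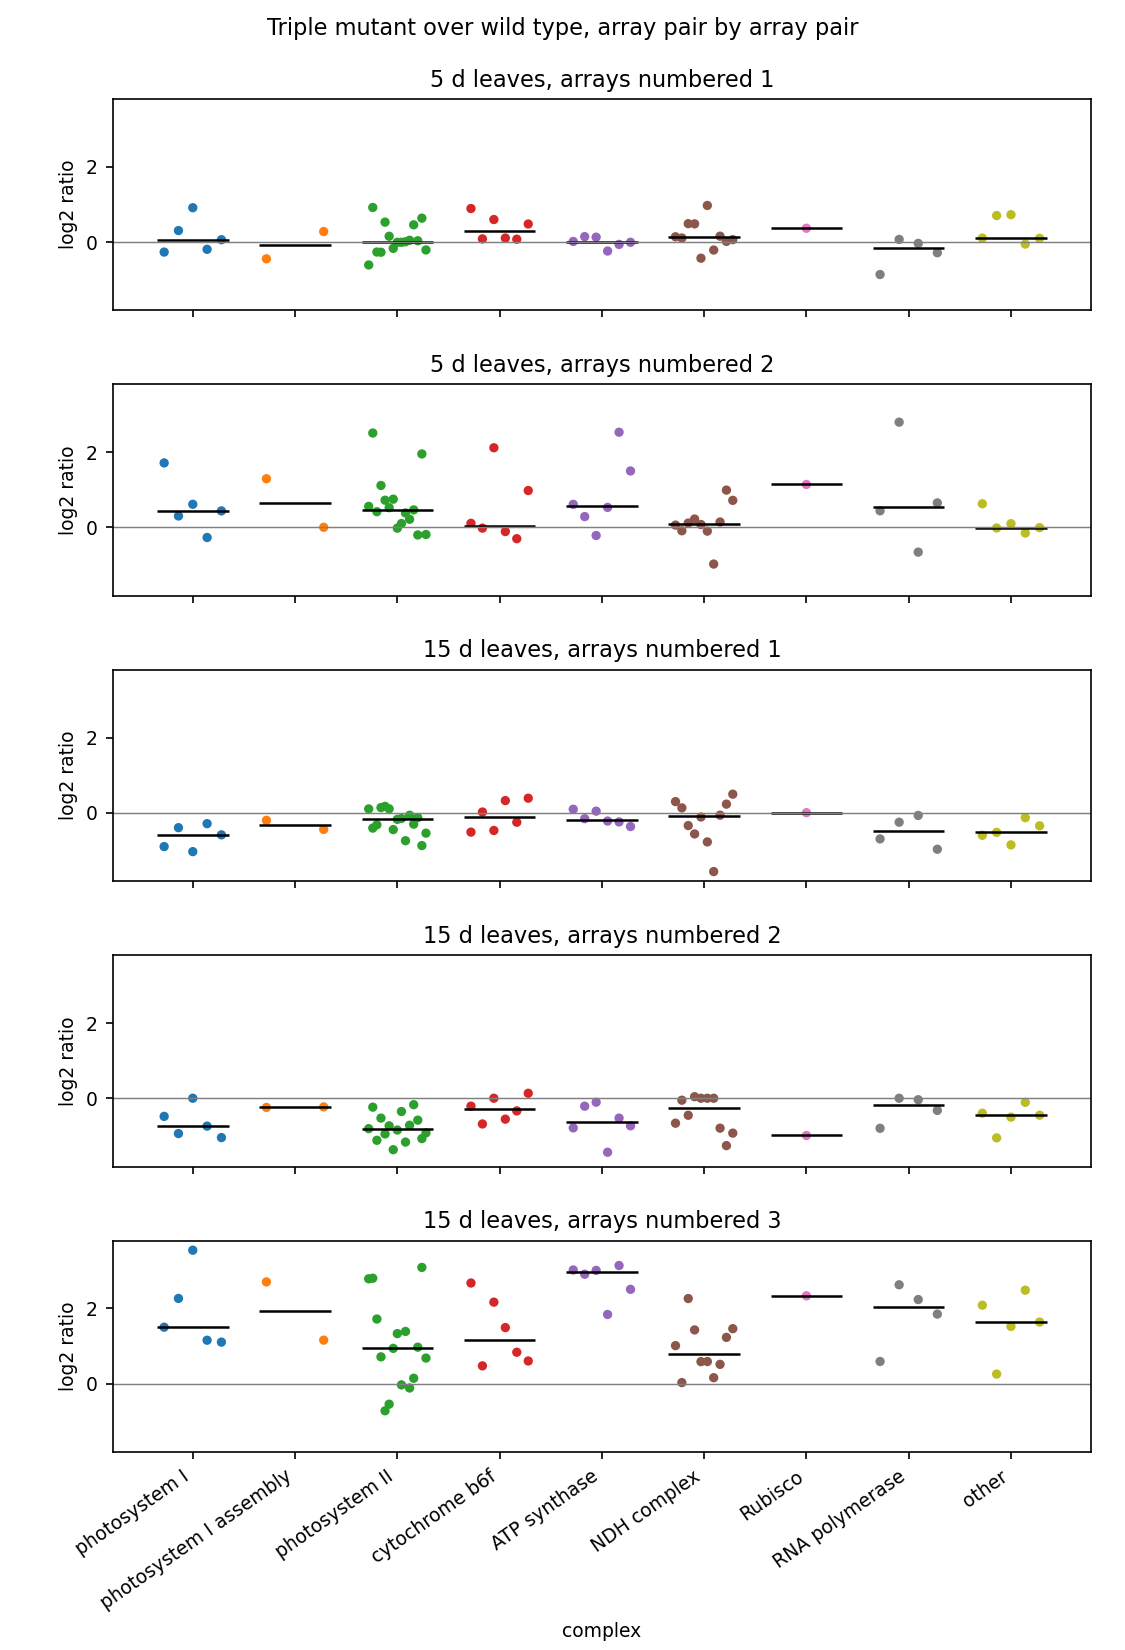
Log2 ratio of the triple mutant to the wild type for each plastid gene (points, grouped by complex), for each pair of leaf arrays with the same age and number (panels); the bars are medians. The medians over the 54 genes are 0.07 and 0.34 at 5 d and -0.25, -0.53 and 1.44 at 15 d.

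Genes of the same operon were compared over the 10 leaf arrays, as a description across arrays that also share their age and number. The correlation of log2 signals was 0.99 for atpB and atpE and 0.98 for psbK and psbI. It was 0.76 to 0.98 among psbB, psbH, psbT, petB and petD, and 0.87 to 0.97 among petL, petG and psaJ, which lie in an operon that joins genes of different complexes. In other operons it reached lower values. Between psaA and psaB, the 2 reaction centre genes of photosystem I, it was 0.30, and among psaC, ndhA, ndhD, ndhE, ndhG, ndhH and ndhI it ran from -0.27 to 0.99. In the last operon ndhE and ndhG reached their highest signals on the arrays numbered 2 at 5 d, of 2912 and 3399 for ndhE, whereas ndhI had its highest on the arrays numbered 1 at 15 d. Of the 54 genes, 40 had a correlation over 0.5 with the median of all 54, a median that holds the gene itself.

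In seedlings the plastid genes varied less. All 54 genes were among the 19626 probe sets tested there, and their range over the 10 genotypes had a median of 0.83 on the log2 scale, against 0.67 over all probe sets. Since each genotype had 1 array, no single genotype could be tested. The median log2 ratio to the wild-type array was 0.27 in myb3r4, with 45 genes higher and 9 lower. It was -0.37 in myb3r1 myb3r3 myb3r5 with 45 genes lower, -0.36 in the quadruple mutant with 43 lower, -0.23 in myb3r3 myb3r4 myb3r5 with 42 lower and -0.17 in myb3r3 myb3r5 with 37 lower. In the other 4 mutants it lay between -0.10 and 0.04. All of these ratios share the same wild-type array.

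Few genes passed a 2-fold ratio. In myb3r4 none of the 54 did, against 0.571% of all probe sets higher and 1.04% lower. In myb3r1 myb3r3 myb3r5 3 genes were more than 2-fold lower, psbT, petL and ndhE, against 1.06% of all probe sets. In the quadruple mutant 3 were lower, ndhE, accD and atpH, against 0.744%, and in myb3r3 myb3r4 myb3r5 2 were lower, psaC and psbB, against 0.545%. In myb3r1 1 gene was lower, psaC, against 0.464%. A single gene was more than 2-fold higher in myb3r3, psbM, and in myb3r5, ndhF, against 1.49% and 0.861%, while 0.403% of all probe sets were more than 2-fold lower in myb3r5.

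By complex, the median ratio in myb3r4 was above 0 in all 9 groups of genes, from 0.16 in the other genes to 0.41 in cytochrome b6f. In myb3r1 myb3r3 myb3r5 it was -0.55 in photosystem I, -0.67 in photosystem I assembly, -0.42 in cytochrome b6f, -0.37 in photosystem II and -0.31 in both the ATP synthase and the NDH complex, whereas rbcL stood at 0.41. In the quadruple mutant photosystem I was at -0.40, the RNA polymerase at -0.40 and the ATP synthase at -0.01.

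The widest ranges among genes above the floor on every seedling array were those of psaC, petL and psbT. The signal of psaC, the iron-sulphur subunit of photosystem I, was 300.2 in the wild type, 144 in myb3r1, 231 in myb3r3, 565 in myb3r4, 158 in myb3r5, 185 in myb3r1 myb3r4, 281 in myb3r3 myb3r5, 204 in myb3r1 myb3r3 myb3r5, 122 in myb3r3 myb3r4 myb3r5 and 227 in the quadruple mutant. The myb3r4 array was the highest and the myb3r3 myb3r4 myb3r5 array, which carries the same mutation, the lowest. The signal of petL, a small cytochrome b6f subunit gene, was 595 in the wild type, 1084 in myb3r4, 286 in myb3r1 myb3r3 myb3r5 and 426 to 577 in the other 7 mutants. The signal of psbT, a small photosystem II subunit gene, was 417 in the wild type, 610.0 in myb3r4, 169 in myb3r1 myb3r3 myb3r5 and 244 to 544 in the others. The myb3r4 array was the highest for all 3 of these genes. The narrowest range was that of ndhI, from 16995 in the wild type to 20683 in myb3r3 myb3r5, or 0.28 on the log2 scale.

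**Figure D5:**
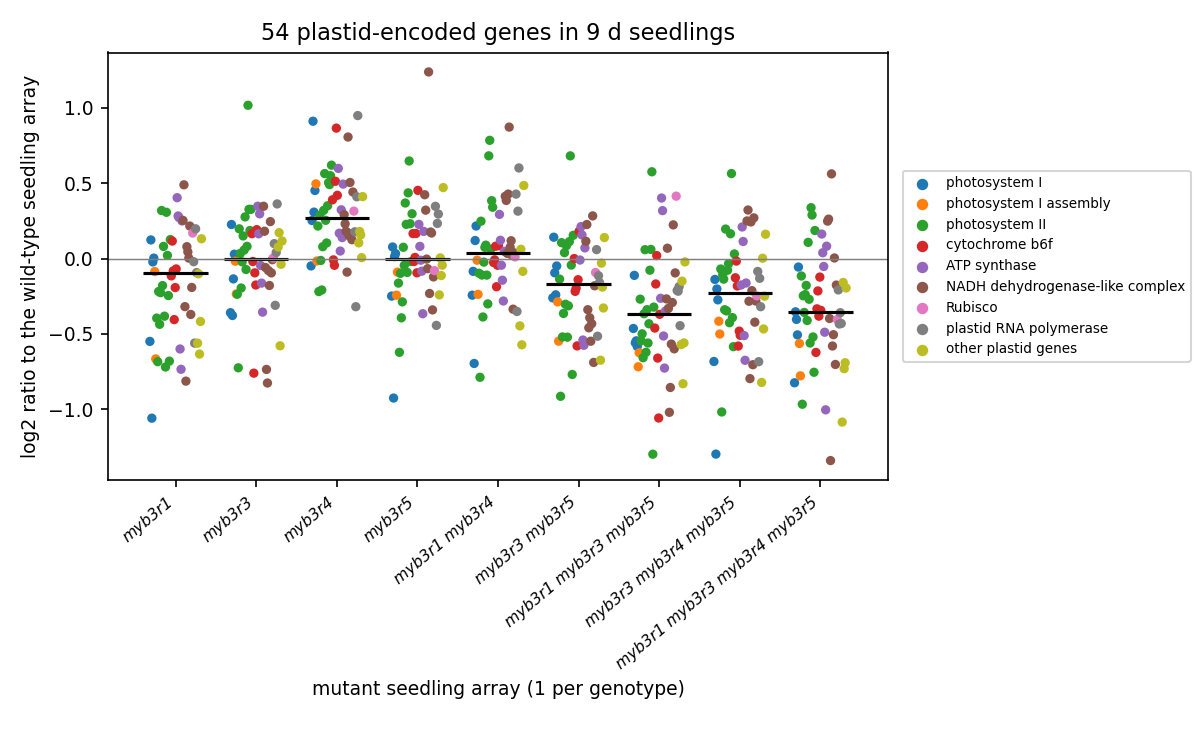
Log2 ratio of each of the 54 plastid genes to the wild-type seedling array (points, coloured by complex) in the 9 mutant genotypes, each with 1 array; the bars are medians over the 54 genes. The medians run from -0.37 in myb3r1 myb3r3 myb3r5 to 0.27 in myb3r4, and all ratios share the wild-type array.

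The 10 seedling arrays were also fitted together with a term for each mutant allele, which assumes that the alleles add on the log2 scale. Of the 54 plastid genes 0 passed an adjusted p of 0.05 in limma for any of the 4 alleles. Of all probe sets 0% were called for myb3r1, 0.0051% for myb3r3, 0.0153% for myb3r4 and 0% for myb3r5. The median log2 term of the 54 genes was -0.19 for myb3r1, -0.16 for myb3r3, 0.08 for myb3r4 and -0.14 for myb3r5, and 17, 8, 3 and 9 genes had an unadjusted p under 0.05, against 9.93%, 10.4%, 5.64% and 7.68% of all probe sets. The gene with the lowest adjusted p was ndhF for myb3r3, with a term of -1.31, an SE of 0.22 and an adjusted p of 0.21. The ndhF terms for myb3r4 and myb3r5 had the opposite sign, 0.77 (SE 0.18) and 0.76 (SE 0.22), and that for myb3r1 was -0.14. Whether the alleles add for this gene was not tested. Its signal fell below the floor on 1 seedling array.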

How the data were processed

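The labels name total RNA labelled with biotin from 10 micrograms per sample and hybridised to 20 Affymetrix arrays. The deposited values are linear intensity signals, 1 per probe set and array, made by the authors with MAS5 per the submitters' processing notes, with the version not given in the sources used here; the trimmed mean of every array was 500.04 to 500.06. Gene names came from the platform annotation and RefSeq. Arrays were scaled to a common trimmed mean, and signals were raised to a floor of 33.1 and put on the log2 scale. Probe sets above the floor on all arrays of at least 1 leaf group, or on any seedling array, were tested with limma 3.58.1 (moderated test with trend, R 4.3.3, two-sided, Benjamini-Hochberg over all tested probe sets, threshold 0.05), which was also tested on simulated data. The leaf fit used the 4 group means of 10 arrays (6 residual degrees of freedom), the number terms had 3 and the seedling fit 5. The block used duplicateCorrelation (0.56) for age and number terms for genotype. Figures were drawn with matplotlib 3.10.9.

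At 15 d, deviations from the group means correlated between same-numbered arrays of the genotypes over all probe sets (0.73, 0.60 and 0.57) and at 5 d by 0.48. Over the 54 genes they correlated by 0.75, 0.90 and 0.77 at 15 d and 0.85 at 5 d. With 2 arrays per group at 5 d, only the sign of the correlation depends on the pairing. Some mismatched arrays at 15 d also correlated above 0 over all probe sets: wild-type 3 with mutant 2 (0.42) and wild-type 2 with mutant 3 (0.15). Over the 54 genes these gave -0.54 and -0.74. The numbers were therefore taken to pair the arrays in the block, the number terms and the pair differences. The same values chose this pairing, so p-values of the number terms are not independent of it. The main leaf fit had no term for the numbers. The labels do not say what a number marks. Genes named with every array were the highest of each complex, the called ones of a comparison (of more than 8, the 4 largest changes each way) and, in seedlings, the 3 widest and the narrowest. Genes and lists were chosen with earlier results of these data known. Transcript sequences were not used here.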

Additional observations from a re-analysis of the deposited data

How the results depend on the processing

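The absence of called plastid genes for genotype at either age, for the difference of the age changes and for the 4 seedling alleles held under every alternative run for it, among them other normalization, scaling without organelle genes, other floors and filters, no variance trend, the groups compared alone, the replicate block and single arrays left out. The replicate block within age gave the same counts, with 4 genes for age in the wild type, of which 3 were shared with the fit without it: matK was lost and psbL gained. It changed no other call for age or genotype. A block across ages gave 4 genes for age in the wild type, 2 of them shared, and 1 called gene for age in the mutant, psbK. For age in the wild type the count of 4 was 0 with no filter on low signals, 0 without both 15 d arrays numbered 2, 1 without both numbered 3 and 1 without the 3 arrays with a 25S rRNA signal under 1000, an alternative chosen after seeing the data. It was 0 to 4 with single arrays left out. For age in the mutant it was 1 when scaled on genes outside the organelles, 4 without both 15 d arrays numbered 1, 3 without both numbered 3, and 0 to 2 with single arrays left out. The number terms, all chosen after seeing the data, moved most. At 5 d the count of 1 was 0 with quantile normalization or a double floor, 3 when scaled on genes outside the organelles, 6 with no floor, 5 among genes above the floor on every leaf array and 0 to 10 with single arrays left out. At 15 d the 25 genes of number 2 were 4 with no filter and 0 to 35 with single arrays left out, and the 16 genes of number 3 were 3 with no filter and 7 to 24. The cause was not tested. The medians over the 54 genes moved by less than the spread between arrays of a group (SD 1.45), which exceeded each of the 4 age and genotype medians printed for all arrays. That spread holds the differences between numbers and is a wide limit. Medians that changed sign stayed within it, so it does not show that they were stable. Signals at the floor of 33.1, as on the 15 d arrays numbered 2, give only an upper limit.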
